A study of Larimichthys crocea with 2 samples.

Results

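F-box proteins are the parts of ubiquitin ligases that choose which protein is tagged, and atrogin-1, the F-box protein FBXO32, is the member best known from wasting muscle. Their transcripts were read in muscle of Larimichthys crocea, the large yellow croaker farmed along the coast of China, from 1 control library of fish that had no treatment and 1 library of fish fasted for 21 days. The members were every gene whose deposited protein name opens with "F-box only protein", "F-box/LRR-repeat", "F-box/WD repeat", "F-box and" or "F-box/SPRY", and these were 71 of the 22321 listed genes. They comprised 38 F-box only genes (FBXO), 20 with leucine-rich repeats (FBXL), 12 with WD repeats (FBXW) and 1 with a SPRY domain, lay on 67 scaffolds and carried 58 distinct names. The labels name neither the body muscle sampled nor the number of fish behind a library, nor a strain or an age, and both libraries were made alike from total RNA.

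An F-box protein binds the adaptor SKP1 through its F-box and holds a substrate with the rest of its chain. SKP1 joins it to the scaffold cullin-1, which carries the RING protein RBX1 and a ubiquitin-conjugating enzyme, and the whole is called an SCF ligase. In mammals atrogin-1 is made almost only in skeletal, cardiac and smooth muscle, is transcribed under FoxO factors when insulin signalling is low, and directs proteins such as MyoD and the initiation factor eIF3-f to the proteasome.

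With 1 library per group no difference had a replicate check, and no p-value is given. The libraries held 27519918 control and 26593839 fasted reads on listed genes. Levels are RPKM, reads per kilobase of coding length scaled to the size of the library. A ratio is log2 of fasted over control RPKM after 0.5 RPKM was added to each, which understates differences of low genes. Only genes whose mean over both libraries reached 1 RPKM entered, 11417 in all. Their median ratio as deposited was 0.48, a 1.40-fold higher value in the fasted library, so every ratio was centred on that median unless stated to be as deposited. Skeletal muscle markers were abundant in both libraries, where 32 genes summed to 436205 control and 237411 fasted RPKM, and 14 of the 24 that entered were at least 2-fold lower in the fasted one. Markers of other tissues were lower too, with 12 haemoglobin genes at 568 and 44.7 RPKM summed, 16 keratin genes at 997 and 193, 2 collagen alpha-1(I) genes at 373 and 40.9, and the 1 liver marker gene found at 0.126 and 0. The part of this difference in makeup in the F-box values was not tested. In RNA of a whole tissue, fewer cells of a type and less RNA per cell cannot be told apart.

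Most F-box genes lay close to the median gene, as did most genes of any kind. Of the 71 members, 47 entered, and 35 of these, or 74.5%, lay within 2-fold of the median gene, against 67.3% of all genes that entered. At least 2-fold higher in the fasted library were 7 members, or 14.9%, against 16.1% of all genes that entered. At least 2-fold lower were 5 members, or 10.6%, against 16.6% of all genes. The share of higher members is near the background. The median ratio of the 47 members was 0.17, with quartiles of -0.21 and 0.75, against 0 for all genes with quartiles of -0.67 and 0.66. Above 0 were 30 members and below 0 were 17. As deposited, 14 members or 29.8% were at least 2-fold higher, against a background of 29.7%, and 2 or 4.26% were lower, against 8.88%. Higher values then made up 87.5% of the members past 2-fold, against 58.3% after centring. The same shares over all genes were 77.0% and 49.3%. The sign changed with the scaling for 10 members, whose centred ratios between 0 and -0.48 are positive as deposited.

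**Figure D1:**
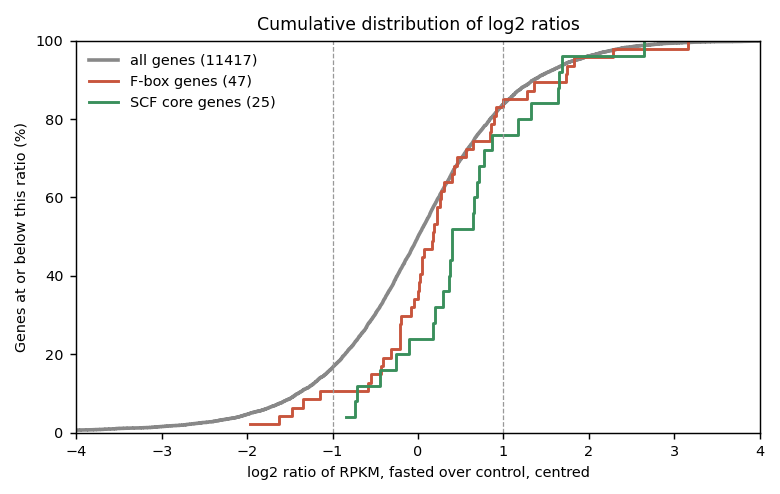
Cumulative share of genes (%) against the centred log2 ratio of RPKM, fasted over control, for all 11417 genes that entered, 47 F-box genes and 25 genes of the SCF core, 1 library per group, with dashed lines at 2-fold. The F-box curve meets the all-gene curve above a ratio of 0 and lies under it among lower ratios, while the SCF core curve lies to the right of both over most of the range.

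By class, median ratios ran from 0.03 to 0.40. The 26 FBXO genes that entered had a median ratio of 0.12, with 2 higher (7.69%) and 3 lower (11.5%). The 12 FBXL genes had a median of 0.03, with 2 higher and 2 lower (16.7% each). The 9 FBXW genes had a median of 0.40, with 3 higher (33.3%) and 0 lower. Of these 3, FBXW9 and FBXW12 stood at 0.566 and 0.382 RPKM in the control library and entered only through the fasted one. The 33.3% therefore shows nothing particular to the class. Over all genes 16.1% were higher and 16.6% lower.

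The family's summed level nevertheless differed by far more than its typical member, and 1 gene carried most of that. All 71 members summed to 335 RPKM in the control library and 1088 RPKM in the fasted library, a 3.25-fold higher value as deposited. Without atrogin-1 the sums were 285 and 460 RPKM, a 1.61-fold higher value. The 1.40-fold of the median gene is a median of single-gene ratios and not a ratio of sums, so the measures are unlike. Summed over all 22321 listed genes, RPKM was lower in the fasted library, at 1095735 control and 922872 fasted. Atrogin-1 accounted for 14.9% of the control sum and 57.8% of the fasted sum. In read counts the family held 15096 control and 39496 fasted reads, or 0.0549% and 0.149% of each library. Members at 1 RPKM or more numbered 42 and 49, and members at 10 RPKM or more 9 and 15, as deposited. The same counts over all genes were not taken, and the median gene was itself 1.40-fold higher in the fasted library. These counts therefore show nothing particular to the family.

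**Figure D2:**
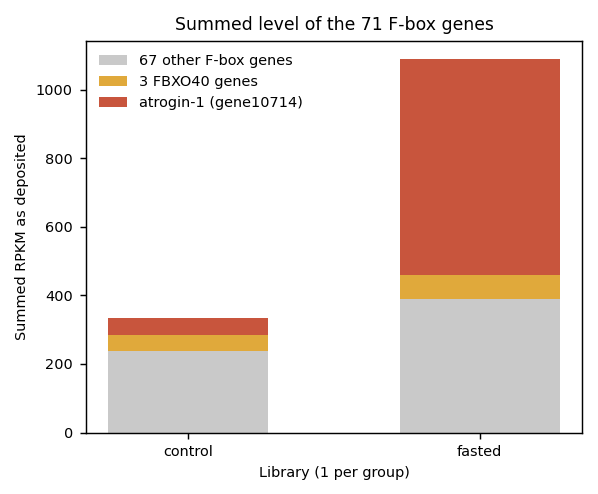
Summed RPKM as deposited (bar height) of the 71 F-box genes in the control and the fasted library, 1 library per group, split into atrogin-1, 3 FBXO40 genes and 67 other members. The atrogin-1 segment is 50.0 RPKM in the control bar and 629 RPKM in the fasted bar, and the other 67 members together are 237 and 390 RPKM.

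Atrogin-1 (gene10714, scaffold NW_011322784.1, bases 218422 to 224410, minus strand) stood at 50.0 RPKM in the control library and 629 RPKM in the fasted library. It was the most abundant F-box transcript of both libraries, and no other gene carried its name. In the control library it was 1.63 times the next member, an FBXO40 gene, and in the fasted library 12.9 times the same gene. Its rank among all 22321 listed genes went from 838 to 183. The values differed 12.6-fold as deposited and 8.92-fold after centring on the log2(RPKM + 0.5) scale, a ratio of 3.16. The 95% exact interval of its read ratio, from 1478 control and 17962 fasted reads, ran from 3.09 to 3.25. These intervals cover counting error only, here and for every other gene. The transcript form listed for each library began at the same first exon, bases 224298 to 224410, and ended in the same last exon, bases 217532 to 218511. The form that starts there stood at 25.7 FPKM, fragments per kilobase scaled to the library, in the control library and 330 FPKM in the fasted library. A log2 ratio of 3.69 as deposited resulted, beside 3.64 for RPKM. The last exon reached 890 bases past the annotated end of the gene in both libraries. Annotated ends were also listed for members at 0 FPKM in each library, such as FBXO16, so reads need not have set the shared first exon. Those ends do not reach past the annotation, and whether reads set the end of the last exon was not tested.

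FBXO25, the closest relative of atrogin-1 in vertebrates, lay on the other side of the median. This gene (gene6783) stood at 2.86 control and 1.34 fasted RPKM, from 86 and 39 reads, with a ratio of -1.35 (counting interval -2.16 to -1.01). As deposited its ratio was -0.87, within 2-fold. The pair therefore had opposite signs under both scalings.

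The other names listed as F-box proteins tied to muscle or its wasting were FBXO30, FBXO21, FBXO31, FBXO40, FBXO9, FBXL22 and FBXO44, the last of which no gene carried. Over all 11 genes of this role, atrogin-1 and FBXO25 included, 10 entered, of which 2 were at least 2-fold higher, 5 within and 3 lower, with a median of -0.01. Over all genes 16.1% were higher, 67.3% within and 16.6% lower, and 10 genes are few to set against those shares. FBXO30, known as MUSA1 and induced in denervated and fasted mouse muscle, had 2 genes. One of them (gene13679) stood at 1.36 and 6.15 RPKM, with a ratio of 1.35 and a counting interval of 1.34 to 2.05. The other (gene18277) stood at 2.79 and 3.51 RPKM, with a ratio of -0.20. The less abundant gene of the control library was thus the more abundant of the fasted one. FBXO21, described in mouse atrophy as SMART, stood at 0.932 and 1.83 RPKM, a ratio of 0.22 with an interval that spanned 0 (-0.02 to 1.02). FBXO31, which in mammals acts on cyclin D1 and is induced in some models of atrophy, stood at 8.97 and 24.0 RPKM. Its ratio of 0.89, with an interval of 0.77 to 1.10, lay just under 2-fold and was 1.37 as deposited.

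FBXO40, a muscle-restricted F-box protein that in mouse directs the insulin receptor substrate IRS1 to degradation, was represented by 3 genes. The most abundant (gene18383) stood at 30.6 and 48.8 RPKM, from 1733 and 2670 reads, with a ratio of 0.18. Its neighbour (gene18384) stood at 16.6 and 20.2 RPKM, with a ratio of -0.21. Both kept close to the median gene, and both were higher in the fasted library as deposited. These genes lie head to head on scaffold NW_011323502.1, at bases 189531 to 194091 on the minus strand and 194090 to 201675 on the plus strand, and share 2 bases. No other F-box gene overlapped a listed gene. The sources used here do not say whether counting used strand, so reads at that junction cannot be told apart. The remaining FBXO40 gene (gene10473) was low, at 1.03 and 0.152 RPKM from 35 and 5 reads, and did not enter. Its centred read ratio was -3.24 (interval -4.95 to -1.88). Of the 3 genes only gene10473 carried the symbol fbxo40, while the 2 abundant ones had locus numbers as symbols, so which is the counterpart of the mouse gene is uncertain. The share of the 3 genes in the family's summed RPKM was 14.4% for the control and 6.35% after fasting. Their own sum was higher in the fasted library, at 48.2 control and 69.1 fasted RPKM as deposited. The share of atrogin-1 in the same sums was 14.9% and 57.8%.

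FBXO9 and FBXL22 completed this role, and both were lower. FBXO9, which in human cells acts on the TEL2 and TTI1 partners of the growth kinase mTOR, stood at 15.4 control and 7.52 fasted RPKM. Its 541 and 255 reads gave a ratio of -1.47 (interval -1.74 to -1.30), or -0.99 as deposited. FBXL22, a heart-enriched F-box protein of the sarcomere's Z-disc that acts on alpha-actinin in mouse, stood at 7.72 and 3.23 RPKM. From 146 and 59 reads its ratio was -1.62 (interval -2.20 to -1.30). The 24 skeletal muscle markers that entered had a median of -1.27, with quartiles of -1.86 and 0.23. Their bearing on FBXL22 was not tested.

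**Figure D3:**
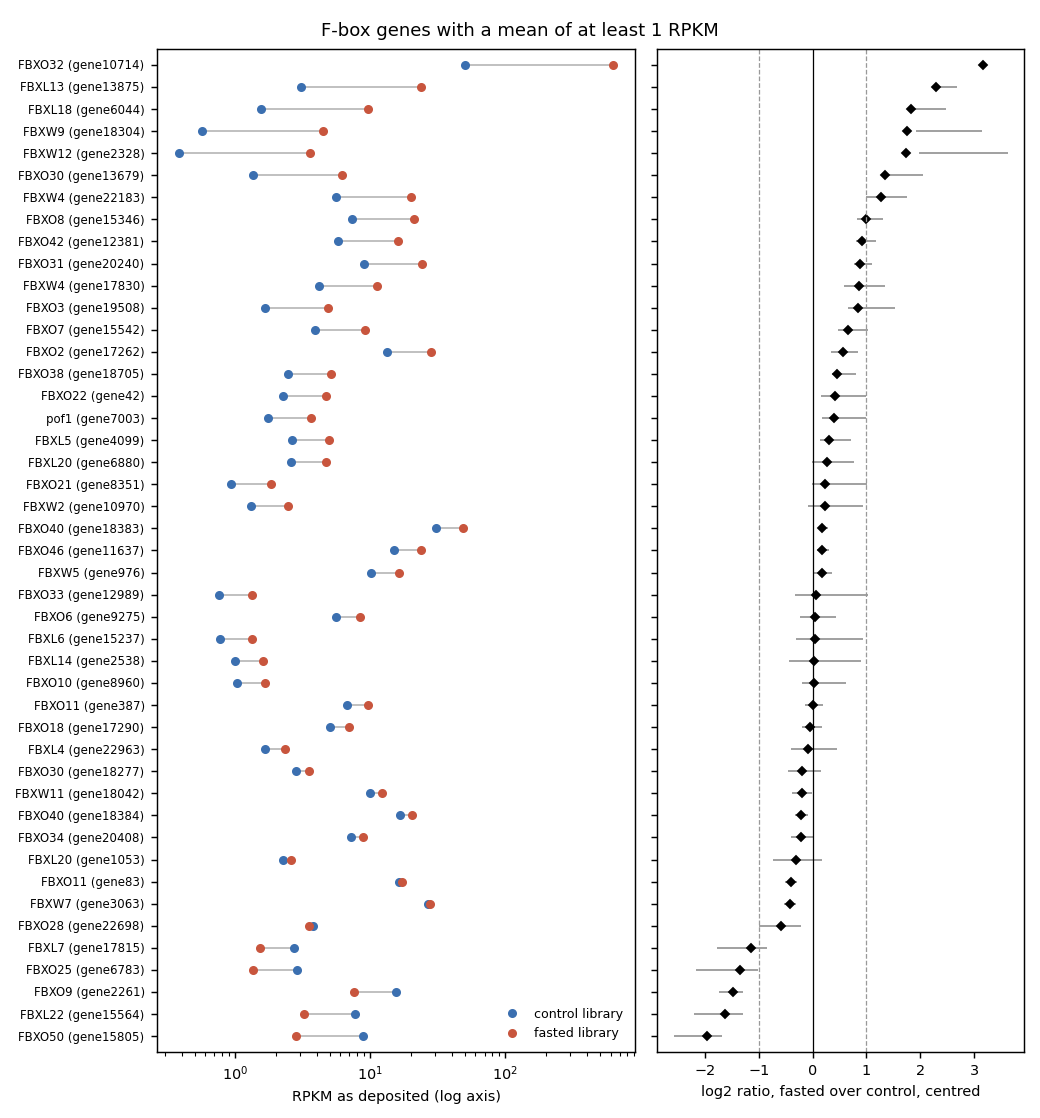
Left, RPKM as deposited (log axis) in the control and fasted libraries of 45 of the 47 F-box genes that entered; right, their centred log2 ratio (diamonds) with 95% counting intervals of the read ratio (lines, no pseudocount) and dashed lines at 2-fold. Atrogin-1 at the top runs from 50.0 to 629 RPKM, while 33 genes have diamonds between the dashed lines and 5 genes at the bottom lie at least 2-fold lower.

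Beside atrogin-1 and FBXO30, 5 further genes were at least 2-fold higher, none of them among the genes listed by role. The largest of these ratios was that of a gene named FBXL13 (gene13875), at 3.04 and 23.6 RPKM. From 231 and 1734 reads its ratio was 2.29 (read-ratio interval 2.28 to 2.68). The human protein of that name is a subunit of the regulatory complex of ciliary dynein, but RefSeq gives this gene the symbol si:ch73-173p19.1, so its name is uncertain. FBXL18 (gene6044) stood at 1.56 and 9.67 RPKM, a ratio of 1.82. Its 94 control and 563 fasted reads gave an interval of 1.83 to 2.48, and both genes were past 2-fold in every setting run.

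The other higher genes were all of the WD-repeat class and had few control reads. FBXW9 (gene18304) stood at 0.566 and 4.49 RPKM, from 27 and 207 reads, with a ratio of 1.74. FBXW12 (gene2328) stood at 0.382 and 3.59 RPKM, from 15 and 136 reads, with a ratio of 1.73. Both were under 1 RPKM in the control library and entered only through the fasted one. At such levels the pseudocount pulls the ratio down, and the intervals of their read ratios, 1.92 to 3.14 and 1.97 to 3.62, lay wholly above it. FBXW4, whose mouse counterpart dactylin is disrupted in a limb malformation, had 2 genes. One (gene22183) stood at 5.54 and 19.9 RPKM, with a ratio of 1.27 (interval 0.98 to 1.75), and the other (gene17830) at 4.13 and 11.2 RPKM, with a ratio of 0.85. They lie on different scaffolds and have coding lengths of 492 and 712 bases, and whether they are pieces of 1 gene was not tested. FBXO8, an F-box protein with a Sec7 domain, came closest to 2-fold from the inside, at 7.27 and 21.1 RPKM and a ratio of 0.99.

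The lowest ratio of the family belonged to FBXO50 (gene15805), which RefSeq lists as nccrp1, the non-specific cytotoxic cell receptor protein described from catfish leukocytes. It stood at 8.77 control and 2.82 fasted RPKM, from 177 and 55 reads, with a ratio of -1.96 (interval -2.58 to -1.68). In mammals this protein is found mainly in squamous epithelia, and of the 5 keratin genes that entered 4 were at least 2-fold lower, with a median ratio of -2.14 over the 5. FBXL7, which in human cells acts on Aurora A, stood at 2.70 and 1.52 RPKM from 110 and 60 reads. Its ratio of -1.14 (interval -1.79 to -0.84) was the nearest to 2-fold among the lower genes, and it was within 2-fold as deposited (-0.66), with a pseudocount of 1 RPKM (-0.98) and with no filter on low genes (-0.83). The share of the skin, blood and connective tissue markers in these values was not tested.

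Of the 8 genes listed as substrate receptors of signalling and the cell cycle, 4 entered and all 4 lay within 2-fold, as did 67.3% of all genes, with a median of -0.31. FBXW7, which in mammals clears cyclin E, MYC and Notch, was 1 of the 5 most abundant members, at 26.7 and 27.7 RPKM (gene3063, ratio -0.43). FBXW11, the beta-TrCP protein that recognises phosphorylated beta-catenin and I-kappa-B, stood at 9.94 and 12.1 RPKM, a ratio of -0.21. FBXO11, a receptor for BCL6 in human cells, had 2 genes, at 16.2 and 17.2 RPKM (gene83, -0.41) and at 6.72 and 9.59 RPKM (gene387, 0.00). All 4 had higher or equal RPKM in the fasted library as deposited, so their signs depended on the scaling. FBXO4, a cyclin D1 receptor, had 21 and 41 reads and did not enter. FBXO5 and FBXO43, the inhibitors EMI1 and EMI2 of the anaphase-promoting complex in dividing cells and eggs, had 2 control reads and 1 fasted read in the first case and were listed at 0 in the second. No gene carried the name FBXW1A.

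None of the 5 iron, mitochondrial and glycoprotein receptors that entered lay 2-fold from the median, where 67.3% of all genes also lay within it. FBXL5, the iron sensor that controls iron regulatory protein 2, stood at 2.64 and 4.92 RPKM, a ratio of 0.31. FBXO7, which works with parkin in the clearance of mitochondria, stood at 3.91 and 9.16 RPKM (0.65), and FBXL4, a mitochondrial F-box protein that restrains that clearance in human cells, at 1.65 and 2.34 RPKM (-0.08). FBXO7 was at least 2-fold higher as deposited (1.13). FBXO2 and FBXO6 recognise the sugar chains of misfolded glycoproteins. FBXO2 stood at 13.3 and 28.0 RPKM (0.57 centred, 1.05 as deposited) and FBXO6 at 5.60 and 8.33 RPKM (0.05). FBXO2 and FBXO46, the latter at 14.9 and 23.8 RPKM with a ratio of 0.17, were also among the 5 most abundant members. The single F-box/SPRY gene, FBXO45, which acts at synapses in mouse and worm, stood at 0.835 and 0.908 RPKM and did not enter. No gene carried the names FBXO17 or FBXO27.

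The remaining members that entered were all within 2-fold. Among those not yet named, FBXO42 had the highest ratio, 0.91 at 5.78 and 16.0 RPKM, and FBXO28 the lowest, -0.59 at 3.78 and 3.49 RPKM. FBXO3 was close to the former, at 1.65 and 4.89 RPKM and a ratio of 0.85. Of the 24 members that did not enter, 6 were listed at 0 in both libraries, namely FBXO16, FBXO39, FBXO43, FBXO47 and 1 gene each of FBXO15 and FBXO36. The other 18 had a mean of at most 0.930 RPKM. Reads per entered member, both libraries together, ran from 84 to 19440 with a median of 381. Counting intervals lay wholly above 0 for 22 of the 47, wholly below 0 for 11 and spanned 0 for 14. No such counts were taken over all genes, and intervals narrow as reads rise, so these counts show nothing particular to the family.

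Genes that shared a name often had unlike ratios. In all 24 members shared 11 names, and near-identical copies could have split reads in counting. For 6 names, among them FBXL13, FBXO11, FBXO30, FBXO40 and FBXW7, at least 2 genes had counting intervals that did not overlap. The widest gap was within FBXL13, whose low second gene (gene2528) had 13 control and 4 fasted reads beside 231 and 1734 of the other. Only gene2528 carried the symbol fbxl13, so these may not be copies of the same gene. Next came FBXO40, with its low gene beside the 2 abundant ones. Among names whose genes all entered, FBXO30 was the widest, with ratios of 1.35 and -0.20. The second FBXW7 gene (gene21869) went from 5 to 23 reads, but RefSeq lists it as wdr86, a WD-repeat protein with another name. For FBXL14, FBXL20 and FBXW4 the intervals overlapped, and FBXO15 and FBXO36 had too few reads to compare. One FBXL20 gene (gene6880) carried another symbol, fbxl2.

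**Figure D4:**
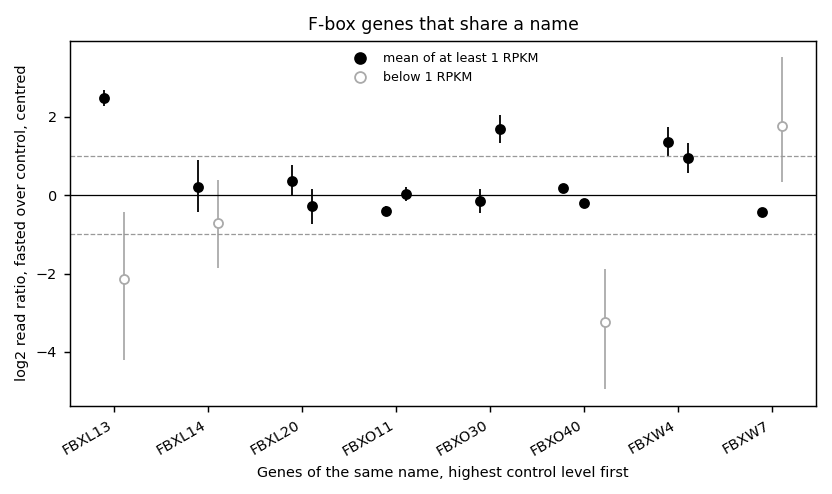
Centred log2 read ratio, fasted over control, with 95% counting intervals, of F-box genes of 8 shared names that had recovered reads in both libraries; filled points are genes that entered, open points lower ones, and dashed lines mark 2-fold. The 2 FBXO30 points stand apart, and the open points of FBXL13 and FBXO40 lie far under the filled points of the same name.

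The ligase on which F-box proteins dock was measured through 25 genes of its core and of the cycle by which the ubiquitin-like protein NEDD8 switches it on. All 25 entered, with 6 at least 2-fold higher and 0 lower, or 24.0% higher against the background of 16.1%, and a median ratio of 0.40. The background of lower genes was 16.6%. As deposited, 12 were higher, or 48.0% against 29.7% of all genes, and 0 lower, against 8.88%. The 3 fixed subunits were all among the 6. SKP1, the adaptor that holds the F-box, stood at 134 and 593 RPKM (ratio 1.65, interval 1.58 to 1.73), RBX1, the RING subunit, at 53.5 and 242 RPKM (1.68), and cullin-1 at 15.8 and 50.9 RPKM (1.17). CAND1, which swaps one F-box protein for another on cullin-1, stood at 38.4 and 168 RPKM in its abundant gene (gene16096, 1.63) and at 2.06 and 5.12 RPKM in the other (gene19671, 0.65).

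The remaining higher genes of the core were conjugating enzymes that hand ubiquitin to the ligase. One gene of UBE2D2 stood at 79.5 and 697 RPKM (gene22655, ratio 2.64), a second at 7.20 and 26.3 RPKM (gene4523, 1.32) and another at 14.7 and 32.7 RPKM (gene5465, 0.64). Both UBE2D4 genes lay within 2-fold, at 130 and 169 RPKM (gene19223, -0.11) and at 25.9 and 47.3 RPKM (gene21830, 0.37). These enzymes also serve many other ligases. The NEDD8 genes went both ways, at 53.6 and 121 RPKM (gene15353, 0.69) and at 29.3 and 24.9 RPKM (gene16961, -0.71). DCN1-like protein 2, which helps attach NEDD8 to cullins, had the lowest ratio, -0.85 at 15.1 and 11.6 RPKM, and a UBE2R2 gene (gene8320) had -0.74. Summed over the 25 genes, RPKM as deposited was 710 for the control and 2359 for the fasted fish. UBE2D2 gene22655, at 697 RPKM, and SKP1, at 593 RPKM, were the largest parts of the fasted sum. After centring, 19 of the 25 genes lay within 2-fold.

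**Figure D5:**
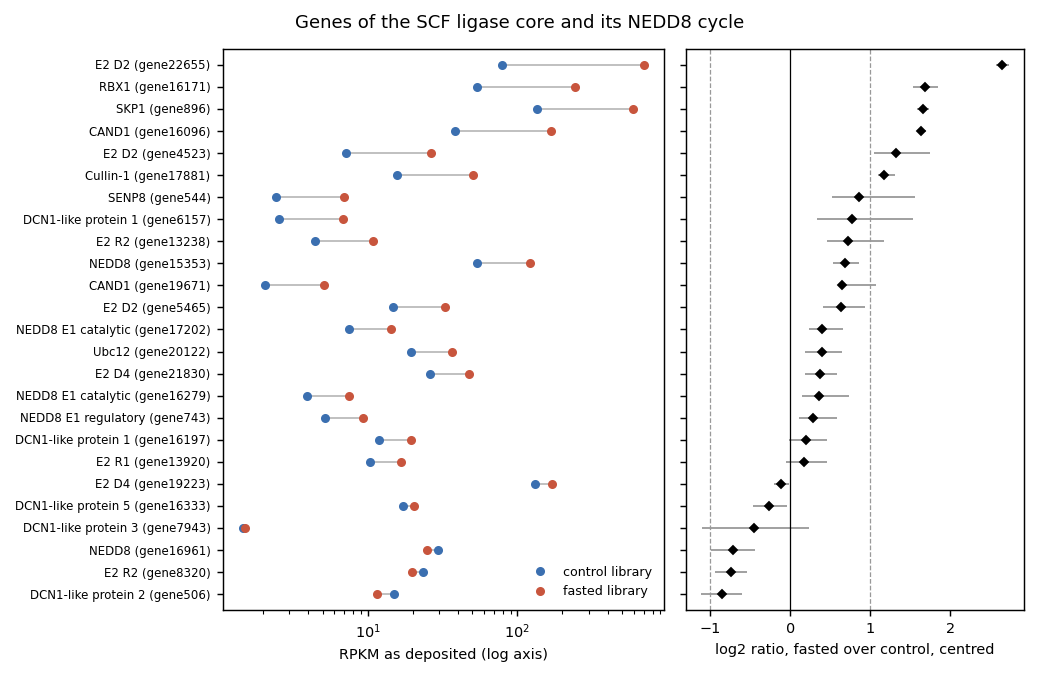
Left, RPKM as deposited (log axis) in the control and fasted libraries of 25 genes of the SCF ligase core and its NEDD8 cycle, where E2 D2, D4, R1 and R2 are ubiquitin-conjugating enzymes; right, their centred log2 ratio (diamonds) with 95% counting intervals of the read ratio (lines) and dashed lines at 2-fold. UBE2D2 gene22655, RBX1, SKP1, CAND1 gene16096, UBE2D2 gene4523 and cullin-1 lie above the upper line, and no gene lies under the lower one.

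F-box or F-box-like proteins filed under other names had 9 genes and were kept apart. Of these, 7 entered, with 1 at least 2-fold higher (14.3%, against 16.1% of all genes), 0 lower (against 16.6%) and a median ratio of 0.31. The higher one was a gene of KDM2A, a histone H3 demethylase with an F-box, at 2.68 and 9.69 RPKM (gene17702, ratio 1.20), and the other KDM2A gene stood at 3.21 and 4.15 RPKM. SKP2, the receptor that clears the cell cycle inhibitor p27, had 1 control and 5 fasted reads. Cyclin-F, the founding F-box protein, had 8 control reads and 1 fasted read.

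The authors' lists of transcript ends and splicing forms, where each form has an FPKM, held 69 of the 71 members in each library. For 32 members the same first exon was listed above 0 in both libraries, and for 26 of these its ratio as deposited had the same sign as that of RPKM. Both measures come from the same libraries, so this is no separate check. As deposited, 40 of the 47 members that entered were above 0 by RPKM. Events inside the transcript were listed for 12 control and 11 fasted members, 10 of them in both libraries. In FBXW4 (gene22183), the exon at bases 32542 to 32682 of scaffold NW_011324274.1 was listed as skippable in the fasted library, with the form that includes it at 6.63 FPKM and the form that skips it at 24.6 FPKM, or 21.2% inclusion. The control library listed no such event for that gene, whose whole transcript stood at 3.46 FPKM there and 31.2 FPKM in the fasted library by its first exon.

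In FBXO40 (gene18383), the stretch from base 193093 to 193178 was listed as a retained intron in both libraries. Its retained form stood at 10.8 FPKM and its spliced form at 6.57 FPKM in the control library, or 62.1% retained. In the fasted library the retained form stood at 26.3 FPKM and the spliced form was listed at 0. In FBXO7, the retained form of the intron at bases 164459 to 164540 made up 73.0% and 62.4%, control first. For the FBXO31 exon at bases 31746 to 31832, the form that skips it was listed at 0 FPKM in both libraries. The form that includes it stood at 4.11 FPKM in the control library, where the last exon of the gene stood at 9.53 FPKM. In the fasted library both stood at 20.7 FPKM. The files give no read counts for single forms, so the depth behind these shares is unknown.

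Each library's list of transcribed regions outside the annotation held 1 region with an F-box name, out of 4048 control and 4498 fasted regions. It was named FBXL19-like and lay on scaffold NW_011324465.1, at bases 10274 to 10851 in the control and 10066 to 10859 in the fasted library. The annotated FBXL19 gene of the same scaffold (gene22617) ends at base 7252, 3021 and 2813 bases before the region, and had 19 and 17 reads. Whether the region belongs to that gene was not tested.

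In the authors' deposited table of comparisons, 63 of the 71 members were listed. It called 23 of them higher, against 30.3% of the 16883 genes it lists, and 7 lower, against 14.5%. All 7 members at least 2-fold higher after centring were among its higher calls, and 4 of the 5 lower ones among its lower calls. A further 10 members that lay within 2-fold after centring were called higher there. Among the listed members, the calls followed a 2-fold cut on the uncentred fold change. Centring took 0.48 off each ratio, so the overlap of the higher genes was fixed in advance. Calls and ratios also come from the same 2 libraries, so the overlap is no separate check.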

How the data were processed

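Total RNA of 2 muscle libraries was extracted with Trizol and prepared with a TruSeq kit, per the labels' protocols. Tools named in the submitters' processing notes are HTSeq, SAMtools 0.1.19, TopHat and TopHat2 2.0.12. The sources used here give no genome build, annotation or use of strand, and coordinates are those of the files. The authors deposited RPKM per gene; the lengths behind them are multiples of 3 bases for 92.3% of genes. The authors also deposited RPM values and their own log2 fold changes and calls, and lists of events with an FPKM for each form. The sources used here do not say how the calls were made without replicates.

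Reads were recovered from the RPM steps: 100% of 16725 control and 16599 fasted values were whole within 0.1 read. A floor of 3 reads equals 0.109 and 0.113 RPM. No count test was run on them, since 1 library per group gives no dispersion. Ratios used a pseudocount of 0.5 RPKM, a mean of at least 1 RPKM, centring on the median (0.48) and a fixed size of 2-fold. Counting intervals are exact 95% Clopper-Pearson intervals, given the summed reads of a gene, and centred as well; reads are not independent molecules. The steps were tested on simulated counts.

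Members came from the name rule. Members and lists were chosen with earlier results of these data known. Named genes were atrogin-1, every member at least 2-fold from the median, every gene of names fixed by role, and the 5 members with the highest mean RPKM; FBXO3, FBXO8, FBXO28, FBXO42 and genes in the paragraphs on low levels, same names, events and the F-box proteins and core genes outside the rule were named after their values were seen. The genes of 1 name are counted among the members but not reported here. Symbols for 60 members came from the event lists and RefSeq (assembly L_crocea_2.0), used for names only. Alternatives covered the pseudocount, filter, scaling, threshold, recovered reads, the authors' calls and the added F-box names. Python 3.11.15, pandas 2.3.3, NumPy 2.4.6, SciPy 1.17.1 and matplotlib 3.10.9 were used.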

Additional observations from a re-analysis of the deposited data

How the results depend on the processing

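Against 7 F-box genes at least 2-fold higher and 5 lower, there were 14 higher and 2 lower as deposited. A mean of at least 5 RPKM left 4 higher and 3 lower, no filter gave 12 higher, the authors' calls 23 higher, a 1.5-fold threshold 13 higher and a 3-fold threshold 2 lower. Over all genes, 29.7% were higher as deposited and 30.3% by the authors' calls. No shares over all genes were taken at the other filters and thresholds. Counts at those settings, here and for the SCF core below, therefore show nothing particular to either set. The median ratio of 0.17 was 0.66 as deposited, 0.35 with no filter and -0.085 with a mean of at least 5 RPKM, where its sign changed. FBXO46 was the median member both in the main setting and in that last one. The change of sign was therefore that of the centre. Atrogin-1 (3.16) stood at 3.64 as deposited, 3.47 with no filter and 2.90 with a mean of at least 5 RPKM, and was at least 2-fold higher in every setting run. The SCF core (6 higher, 0 lower) had 12 higher as deposited, 12 higher and 3 lower at 1.5-fold, and 1 lower with a mean of at least 5 RPKM. Pseudocounts of 0.1 and 1 RPKM, recovered reads, scaling without the 20 most abundant genes and adding the other F-box names kept these counts within 1.5 times. Among the 46 other F-box genes that entered, leaving out the centring brought 7 past 2-fold and 3 back within it. No paired analysis was possible because each group holds 1 library. Depth limits low genes most: their counting intervals are wide, and no interval covers differences between fish.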
